A study of Mus musculus with 5 samples.

Results

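The 7 genes described here degrade amyloid beta, take it up or sort its precursor, and their RNA was followed across the cell classes of the mouse hippocampus. The members were chosen by symbol, as Ide, Mme, Ece1, Ece2, Lrp1, Sorl1 and Sort1, and all 7 were found among the 32285 gene features of each library. Single-nucleus RNA and open chromatin were measured together (10x multiome, in which 1 nucleus gives both an RNA and an ATAC library) in hippocampus from 5 genotypes, with 1 library each: wild type, 5xFAD, 5xFAD with astrocyte-specific MAGL-KO, 5xFAD with neuron-specific MAGL-KO and 5xFAD with global MAGL-KO. 5xFAD mice carry transgenes for human amyloid precursor protein and presenilin with familial Alzheimer mutations, and all 3 knockout libraries carry them too. MAGL is monoacylglycerol lipase, the product of Mgll, which hydrolyses the endocannabinoid 2-arachidonoylglycerol. The labels name neither the driver of cell-specific deletion nor strain, age or number of animals. Every library held nuclei with Xist RNA and nuclei with Y-linked RNA, so each pools animals of both sexes. There is no replicate of any genotype, and differences below are between libraries; the intervals cover counting error only.

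Amyloid beta is removed from the brain by proteases and by uptake into cells, and its production depends on where its precursor is carried within the cell. Insulin-degrading enzyme (Ide), neprilysin (Mme) and the endothelin-converting enzymes (Ece1, Ece2) are metalloproteases that cleave the peptide. The endocytic receptor Lrp1 takes up amyloid beta and apolipoprotein E, and the VPS10 family receptors SorLA (Sorl1) and sortilin (Sort1) sort cargo, the precursor protein among it, between the Golgi, endosomes and the cell surface.

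Between 4050 and 7498 nuclei were listed per library, with 101931020 to 159532813 RNA UMIs in total and a median of 14068.5 to 17353.5 UMIs per nucleus. After removal of likely doublets, 78.8% to 83.1% of nuclei fell into named classes, and UMIs of Xist and of Y-linked genes occurred together in 10.6% to 15.1%. Libraries shared 134 to 223 cell barcodes with other libraries. Nuclei with Xist made up 58.0%, 41.3%, 58.3%, 82% and 58.0% of nuclei called for 1 sex in the wild-type, 5xFAD, astrocyte, neuron and global MAGL-KO libraries, an order kept for all runs of 5 values below. Mgll did not mark the knockouts: its level in dentate granule cells was 86.4, 83.2, 114, 117 and 107 UMIs per 1000000 UMIs of the class (CPM), and in astrocytes 498, 346, 483, 403 and 430 CPM. Neither the neuron class of the library labelled neuron MAGL-KO nor the astrocytes of the library labelled astrocyte MAGL-KO lacked Mgll UMIs. The deleted exon is unnamed in the labels, and reads outside it check nothing, so the knockout libraries are named by their labels throughout.

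The genes lie at chr19:37268743-37337852 (Ide, minus strand), chr3:63241537-63386030 (Mme, plus), chr4:137862237-137965229 (Ece1, plus), chr16:20629828-20646485 (Ece2, plus), chr10:127538161-127621148 (Lrp1, minus), chr9:41964720-42124297 (Sorl1, minus) and chr3:108284082-108361511 (Sort1, plus) in GRCm38 with GENCODE vM21. Ide overlaps Rpl10-ps6, Ece2 overlaps Gm49333 and Sort1 overlaps Gm43099 on the same strand, so reads could be split or shared between them. Astrocytes numbered 28 to 68 nuclei and microglia 43 to 122 per library, so their values rest on few UMIs.

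Levels were read in 10 classes. Cajal-Retzius cells (33 nuclei in all) and choroid plexus (30 nuclei), also named, were left out for their size, and single values there were higher: Ide was 136 CPM in choroid plexus from 34 UMIs and Ece2 was 48.0 CPM in Cajal-Retzius cells from 7 UMIs. Among the 10 classes the members differed in the class that led. Lrp1 was highest in microglia, Sort1 in mature oligodendrocytes, Sorl1 in CA1 pyramidal neurons, Mme and Ece2 in inhibitory neurons, and Ece1 in vascular cells and, among neurons, in the subicular and cortical class. Ide differed little between classes. Per kilobase of gene span, the mean level over the 5 libraries in the leading class of these 10 was 5.10 CPM per kb for Lrp1 in microglia, 4.32 for Sort1 in oligodendrocytes, 2.27 for Ece2 in inhibitory neurons, 1.43 for Sorl1 in CA1 neurons, 1.40 for Ide in astrocytes, 1.15 for Ece1 in vascular cells and 0.0903 for Mme in inhibitory neurons. With UMIs of all libraries summed, the highest of the 9 compared classes exceeded the lowest 282-fold for Lrp1 (95% interval 129 to 774), 26.5-fold for Sorl1 (18.0 to 41.0), 16.2-fold for Sort1 (12.5 to 21.3), 10.7-fold for Ece1 (6.58 to 18.7) and 1.98-fold for Ide (1.55 to 2.52). Ece2 exceeded its lowest class, microglia with 1 UMI, 34.8-fold (6.25 to 1377). Mme had 0 UMIs in oligodendrocyte precursors, and inhibitory neurons were at least 12.5-fold higher against a floor of 3 UMIs over the 5 libraries.

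**Figure D1:**
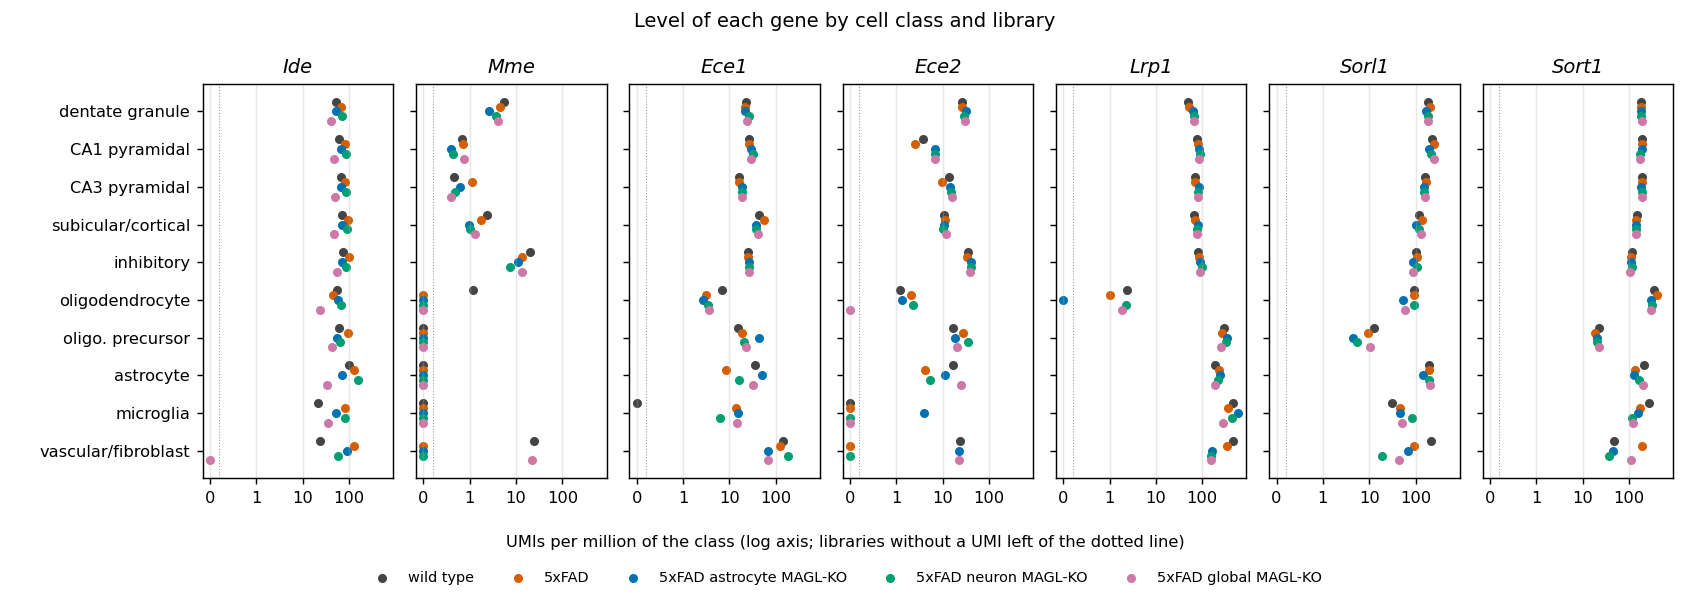
Level of each gene in each class and library, in CPM of the class on a log axis; 1 panel per gene, 1 point per library, and points left of the dotted line stand for 0 UMIs. Lrp1 is near 0 in oligodendrocytes and highest in microglia, while Sort1 is highest in oligodendrocytes.

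Open chromatin at the start sites was compared with these levels. A peak listed in all 5 libraries covered the start site given by the gene features for Ece1, Lrp1, Sorl1, Sort1 and Mme. The windows of 250 bases before 1 RefSeq start per gene (build GRCm38.p6) are shown for 3 of these. For contrast Ide is shown too, whose RefSeq window and annotated start in the files held no peak. Ece1 lies on the plus strand at chr4:137861987-137862236, Lrp1 on the minus strand at chr10:127621149-127621398, Sorl1 on the minus strand at chr9:42124298-42124547 and Ide on the minus strand at chr19:37334545-37334794. Capitals mark the GC box GGGCGG, the CCAAT box and the E box CACGTG, each searched on both strands.
Ece1: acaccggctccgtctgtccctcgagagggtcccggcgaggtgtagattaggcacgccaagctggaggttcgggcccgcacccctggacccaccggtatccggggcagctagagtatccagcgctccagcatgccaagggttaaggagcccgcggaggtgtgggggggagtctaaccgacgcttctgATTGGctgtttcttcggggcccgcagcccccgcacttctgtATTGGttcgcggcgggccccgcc
Lrp1: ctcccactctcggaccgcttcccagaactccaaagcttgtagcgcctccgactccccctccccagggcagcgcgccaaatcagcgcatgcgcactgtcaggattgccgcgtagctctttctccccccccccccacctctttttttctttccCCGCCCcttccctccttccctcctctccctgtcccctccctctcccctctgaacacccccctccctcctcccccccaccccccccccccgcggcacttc
Sorl1: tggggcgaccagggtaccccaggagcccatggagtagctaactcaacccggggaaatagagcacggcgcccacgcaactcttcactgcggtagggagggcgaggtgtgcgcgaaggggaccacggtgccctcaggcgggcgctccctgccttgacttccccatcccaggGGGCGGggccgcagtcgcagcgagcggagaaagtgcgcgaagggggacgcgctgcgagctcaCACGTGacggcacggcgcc
Ide: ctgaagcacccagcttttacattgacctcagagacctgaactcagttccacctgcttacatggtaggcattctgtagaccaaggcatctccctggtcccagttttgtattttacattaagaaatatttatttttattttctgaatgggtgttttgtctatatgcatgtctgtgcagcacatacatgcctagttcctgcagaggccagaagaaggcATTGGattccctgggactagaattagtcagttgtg
The first 3 windows are rich in G and C, at 66.8% with 22 CpG dinucleotides for Ece1, 67.2% with 13 for Lrp1 and 69.6% with 26 for Sorl1, against a median of 52.4% and 6 CpG over 32851 promoter windows. The Ide window has 42.8% and 0 CpG, and its nearest peak lay at chr19:37332452-37333358. The start of Ide differs between sources. The gene features place it at chr19:37330613, 7239 bases from the 5′ end in vM21 (37337852), and the RefSeq window lies between the 2. It is therefore not settled that this window is the Ide promoter. Sources differ for Mme too: its gene feature starts at chr3:63295561, 54024 bases from the 5′ end in vM21 (63241537). The start-site peak of Mme covers only the former. In the windows shown, Lrp1 holds 1 GC box and Sorl1 holds 1 GC box and 1 CACGTG, Ece1 holds 2 CCAAT boxes and Ide 1. RefSeq lists further starts for Ece1 and Sorl1. The Ece1 window at chr4:137862030-137862279 lies under the same start-site peak and holds 2 GC boxes. The Sorl1 window at chr9:42077214-42077463 has 47.2% G and C and none of the motifs. Of all windows, 32.7% hold a GC box, 33.8% a CCAAT box and 6.02% CACGTG. No TATAAA (12.4% of windows, either strand) or TGACGTCA (1.55%) was found in the 4 windows shown. RefSeq windows were matched for 6 members and not for Sort1.

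Ide, a cytosolic and peroxisomal zinc protease, differed between libraries in the same way in all 5 neuron classes. In all neurons together it was 62.9, 82.8, 64.2, 83.2 and 47.0 CPM, from 4194 to 5890 UMIs. The 5xFAD and neuron MAGL-KO libraries were high, wild type and astrocyte MAGL-KO were intermediate and the global MAGL-KO library was lowest, with counting intervals of 80.7 to 85.0, 80.9 to 85.5, 61.1 to 64.7, 62.4 to 66.2 and 45.6 to 48.4 CPM that did not overlap between these 3 levels.

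Single neuron classes were read next. In CA1 pyramidal neurons Ide was 60.3, 81.9, 67.4, 88.1 and 47.7 CPM. In dentate granule cells it was 52.8, 67.0, 53.3, 70.7 and 41.7 CPM. In inhibitory neurons it was 75.6, 99.9, 69.7, 87.4 and 54.1 CPM. The global MAGL-KO library was lowest and the 5xFAD or neuron MAGL-KO library highest in each of these classes, and also in CA3 neurons (66.7, 81.4, 67.1, 87.9 and 50.0 CPM) and in the subicular and cortical class (72, 93.4, 70.0, 89.8 and 46.6 CPM).

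**Figure D2:**
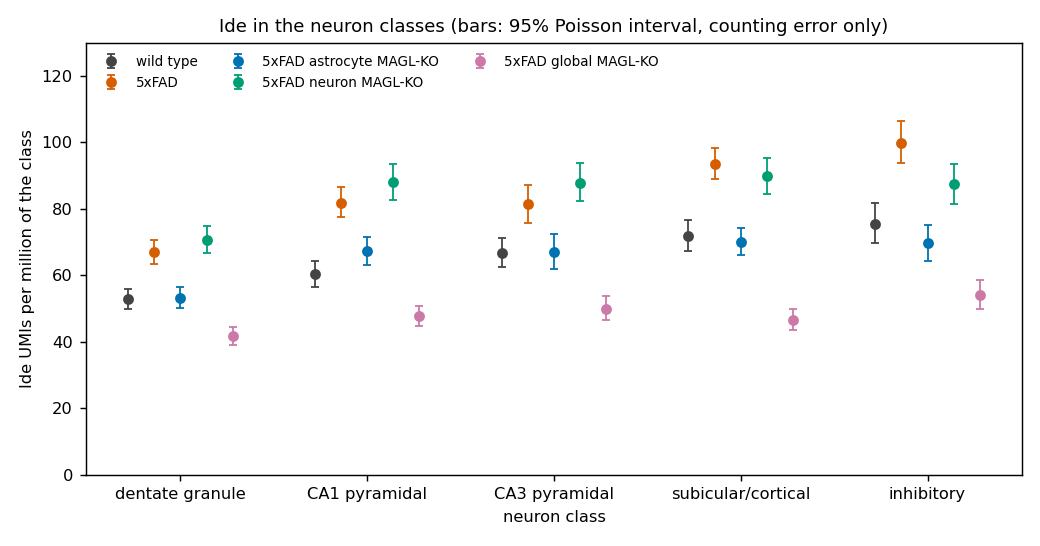
Ide level in the 5 neuron classes, in CPM of the class, with 1 point per library and bars for the 95% Poisson interval. In every class the global MAGL-KO library is lowest, between 41.7 and 54.1.

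Called here is a ratio at least 25% higher or 20% lower with at least 50 UMIs over the 2 libraries. Ide was called higher in 5xFAD than in wild type in 6 of 8 classes tested, where 7.87% of all gene and class pairs were called higher; the log2 ratio was 0.44 in CA1 neurons (95% interval 0.32 to 0.56) and 0.34 in dentate granule cells (0.23 to 0.46). With nuclei thinned to 1000 UMIs the ratio was within the fold in dentate granule cells (0.18), inhibitory neurons (0.19) and the subicular and cortical class (0.12). Thinning is a random draw that leaves far fewer counts, and thinned ratios carry no counting interval here. In the library labelled global MAGL-KO Ide was called lower than in 5xFAD in 7 of 7 classes, against 7.99% of all pairs. The log2 ratios lay between -0.69 and -1.14. The ratio was -0.78 in CA1 neurons (-0.90 to -0.66) and -0.88 in inhibitory neurons (-1.04 to -0.73). In dentate granule cells it was -0.69, and -0.30 with thinned nuclei, within the fold. In the library labelled astrocyte MAGL-KO it was called lower in 4 of 7 classes (6.14% of all pairs), including -0.52 in inhibitory neurons (-0.67 to -0.38), -0.33 in dentate granule cells and -0.42 in the subicular and cortical class. The latter pair fell to -0.07 and -0.08 among nuclei with Y-linked RNA and to -0.07 and -0.16 with nuclei thinned to 1000 UMIs. In the library labelled neuron MAGL-KO it was called higher in 1 of 8 (31.2%) and lower in 1 of 8 (7.06%). The higher ratio, in oligodendrocytes (0.57), was -0.12 with nuclei classed by their highest marker score. The lower ratio, in oligodendrocyte precursors (-0.62), was -0.045 with likely doublets kept.

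Glial Ide rested on few UMIs. In oligodendrocyte precursors it was 59.6, 96.0, 54.3, 62.4 and 43.7 CPM from 184 UMIs in all, with the 5xFAD library high. In oligodendrocytes it was 55.9, 45.8, 57.3, 67.9 and 23.7 CPM from 205 UMIs, with the global MAGL-KO library low. Astrocytes had 98.9, 125, 72.1, 156 and 33.1 CPM from 106 UMIs. Their log2 ratio of 5xFAD to wild type, 0.34, was called. It was within the fold with classes by marker score (0.22), with likely doublets kept (0.27) and without nuclei of both sexes (0.27).

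Genes around Ide were then listed, a choice made after its values were seen. Ide spans chr19:37268743-37337852 on the minus strand (GRCm38, GENCODE vM21). Of 17 genes within 1 Mb that had at least 250 neuronal UMIs, Btaf1 and Fgfbp3 shared the low level of the global MAGL-KO library. Btaf1, a regulator of TATA-binding protein, had 210, 237, 191, 227 and 168 CPM in neurons, a log2 ratio of -0.50 between global MAGL-KO and 5xFAD. Fgfbp3, a fibroblast growth factor binding protein, had 3.07, 3.94, 5.26, 6.67 and 1.92 CPM, a log2 ratio of -1.04. Cpeb3 and March5, which lie between Btaf1 and Ide, had ratios of -0.08 and -0.01, and Kif11 and Exoc6 beyond Ide had -0.08 and -0.00. The genes with low values were therefore not a single unbroken block.

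Accessible sites were low near the same genes and also at the start of Kif11. Within 1 Mb of Ide, 150 peaks were listed in all 5 libraries, and 2 runs of at least 5 successive peaks had neuronal cut sites lower by 0.25 or more on the log2 scale in the global MAGL-KO library than in 5xFAD. One run of 5 peaks lay at chr19:36918539-36971534, around the starts of Fgfbp3 and Btaf1, with a median of -0.81. The other, of 14 peaks at chr19:37233476-37376670, took in Ide and had a median of -0.82. Its last peak, at chr19:37375755-37376670, covers the start of Kif11 and had a ratio of -0.71. Kif11 RNA had a ratio of -0.08 from 327 UMIs. The runs were picked by the cut-site ratio of global MAGL-KO to 5xFAD, so their medians describe and test nothing. In the other comparisons, which did not choose them but share the 5xFAD library with it, the median over the 19 peaks was 0.25 on the log2 scale in 5xFAD relative to wild type, -0.29 for astrocyte MAGL-KO against 5xFAD and 0.01 for neuron MAGL-KO against 5xFAD. The other 131 peaks had medians of 0.04, 0.05, -0.05 and, for global MAGL-KO, -0.07.

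**Figure D3:**
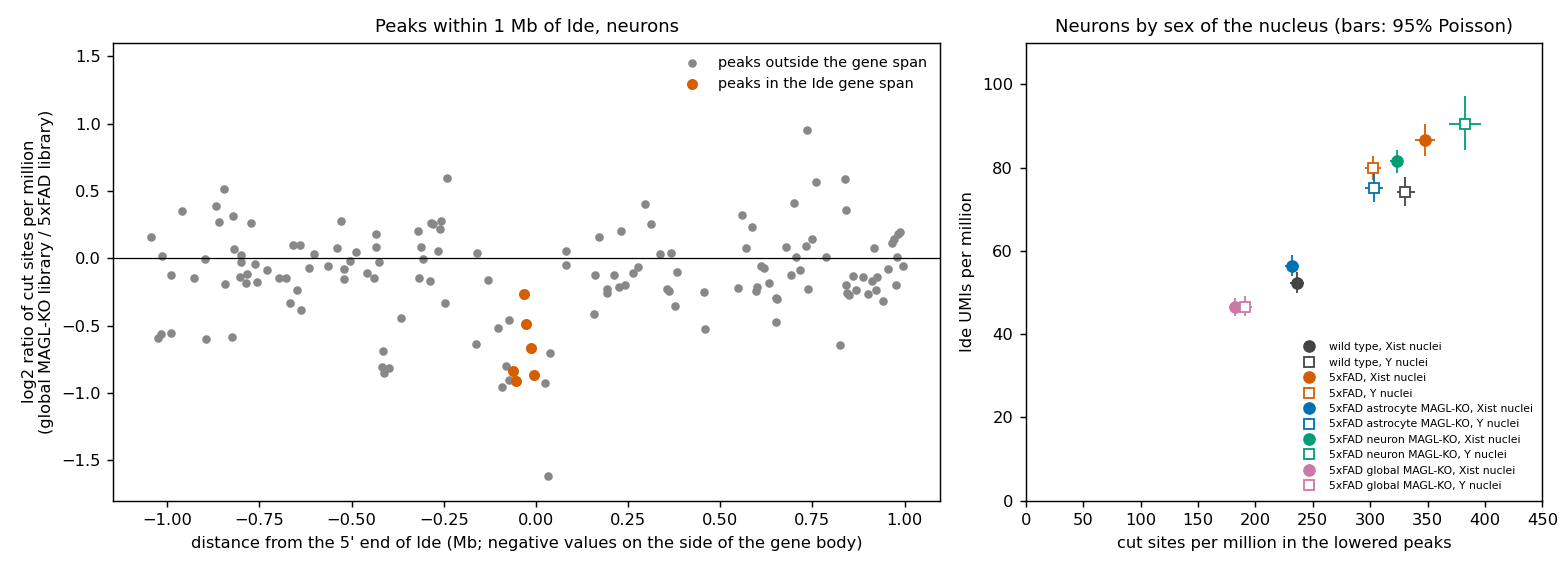
Left, log2 ratio of neuronal cut-site CPM between the global MAGL-KO and 5xFAD libraries for peaks by distance from the 5′ end of Ide in Mb; right, Ide UMI CPM against cut-site CPM in the 19 lowered peaks, for Xist and Y nuclei of each library with 95% Poisson bars. The lowered peaks form 2 runs, and cut-site CPM is lower with Xist than with Y in the wild-type, astrocyte and neuron MAGL-KO libraries and higher with Xist in 5xFAD.

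Within libraries the level of Ide also differed with the sex of the nucleus. In neurons with Xist it was 52.4, 86.6, 56.4, 81.5 and 46.5 CPM, and in neurons with Y-linked RNA 74.2, 79.9, 75.1, 90.6 and 46.6 CPM. Wild-type, astrocyte MAGL-KO and neuron MAGL-KO nuclei had point values lower with Xist than with Y-linked RNA, 5xFAD nuclei had the higher value with Xist, and both kinds were low in the global MAGL-KO library. Cut sites in the 19 peaks, which were picked for their low values in the global library, were 236, 348, 232, 323 and 182 CPM with Xist and 331, 302, 303, 383 and 191 CPM with Y. Among nuclei with Y-linked RNA wild type was above 5xFAD in cut sites but below it in Ide RNA. In CA1 neurons with Y-linked RNA, Ide was 70.4 CPM in wild type (63.9 to 77.3) and 79.9 in 5xFAD (74.1 to 86.1), with overlapping intervals. In CA1 neurons with Xist it was 52.9 and 87.4 CPM, a larger difference. In the subicular and cortical class the ratio of 5xFAD to wild type was -0.03 among nuclei with Y-linked RNA, and in CA1, dentate and inhibitory neurons it was 0.18, 0.10 and 0.16, none past the fold. A duplication that carries Ide and Fgfbp3 is known to vary among C57BL/6J mice. DNA copy number was not analysed here, and its part in these values was not tested; with 1 library per genotype, genotype and animal cannot be told apart.

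Mme encodes neprilysin, a membrane protease at the cell surface. In inhibitory neurons it was 19.8, 13.3, 11.3, 7.36 and 13.6 CPM from 69 to 166 UMIs per library. Wild type was highest and the neuron MAGL-KO library lowest, and the counting interval of wild type (16.9 to 23.0) did not reach that of any other library. Vascular cells had 9.28 CPM on average from 2 UMIs, under their floor of 13.9 CPM. Of the other classes dentate granule cells followed at 5.51, 4.45, 2.60, 3.69 and 4.00 CPM, with CA1 neurons below 1 CPM in all libraries. No UMI was found in astrocytes, microglia or oligodendrocyte precursors, whose floors of 3 UMIs over the 5 libraries stand at 2.91, 3.26 and 1.04 CPM, so a level below these was not detectable.

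Among the named inhibitory clusters Mme was highest in a cluster with Btbd11, Erbb4 and Sox6 among its leading genes (40.5 CPM). It was 18.2 CPM in a cluster led by Sst, 3.81 CPM in the cluster led by Adarb2 and Vip and 1.92 CPM in the cluster with Ndnf and Reln. A cluster of 1105 nuclei led by Erbb4, Nxph1 and Kcnmb2 was left unnamed and enters no class level, since 51.4% of its nuclei had both Xist and Y-linked UMIs. Mme was called lower in 5xFAD than in wild type in 2 of 3 classes tested, against 11.9% of all pairs; in inhibitory neurons the log2 ratio was -0.57 (-0.91 to -0.23). In the subicular and cortical class it was -0.40 (-1.18 to 0.38), and within the fold with the cluster mix held fixed (-0.27) or a pseudocount of 5 CPM (-0.12). Between the library labelled neuron MAGL-KO and 5xFAD it was -0.86 in inhibitory neurons (-1.30 to -0.42). Between the library labelled astrocyte MAGL-KO and 5xFAD it was -0.77 in dentate granule cells (-1.30 to -0.26). Dentate clusters were mixed unequally: a cluster with Pappa and Penk among its leading genes made up 1.97%, 1.77%, 22.7%, 26.3% and 33.1% of dentate nuclei and had 5 UMIs of Mme (0.279 CPM), against 5.52 CPM in the largest dentate cluster. With the cluster mix held fixed the dentate ratio of the astrocyte library was -0.42, and among nuclei with Y-linked RNA it was -0.23. Sex of the nucleus turned the inhibitory ratio of the neuron library: inhibitory Mme was 13.3 CPM in 5xFAD and 5.00 CPM in the neuron MAGL-KO library among nuclei with Xist, but 16.7 and 23.5 CPM among nuclei with Y-linked RNA, the last from 16 UMIs in 40 nuclei.

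Ece1 encodes an enzyme that processes big endothelin at the cell surface and in endosomes. Vascular cells had 144, 126, 67.9, 189 and 67.3 CPM, from 26 UMIs in 10 to 15 nuclei per library. Among the other classes the subicular and cortical class led with 43.0, 56.5, 37.6, 36.8 and 40.8 CPM. The 5xFAD library was high there, with an interval of 52.9 to 60.2 that overlapped no other. Inhibitory neurons stayed between 25.8 and 26.9 CPM in all libraries, and oligodendrocytes had 4.02 CPM on average from 16 UMIs.

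In the subicular and cortical class Ece1 was called higher in 5xFAD than in wild type (log2 ratio 0.39, 0.24 to 0.55) and called lower in each of the 3 knockout libraries than in 5xFAD, with -0.59, -0.62 and -0.47 in the astrocyte, neuron and global libraries. The astrocyte ratio was -0.16 with nuclei thinned to 1000 UMIs and the global ratio -0.12 among nuclei with Y-linked RNA, both within the fold. These 3 ratios share the 5xFAD library. The class mixes clusters, and the cluster led by Rorb and Pdzrn3 had 58.2, 82, 48.1, 44.6 and 61.0 CPM of Ece1 and made up 17.4%, 27.5%, 19.5%, 12.6% and 26% of the class. Within that cluster, too, the 5xFAD library was highest. With each nucleus thinned to 1000 UMIs, which leaves far fewer counts, the ratio of 5xFAD to wild type turned to -0.19, and with the cluster mix held fixed it was 0.23.

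Ece2 is a relative of Ece1 that works at acidic pH in the secretory pathway. Its counts are uncertain, since the gene Gm49333 overlaps it on the same strand. It was 34.7, 34.4, 40.0, 40.8 and 38.8 CPM in inhibitory neurons and 26, 25.7, 31.2, 29.1 and 31.0 CPM in dentate granule cells. Oligodendrocyte precursors had 23.9 CPM on average from 71 UMIs, above the CA3, CA1 and subicular and cortical classes. In both classes the 3 knockout libraries lay above the wild-type and 5xFAD libraries, with log2 ratios to 5xFAD of 0.28, 0.18 and 0.27 in dentate granule cells and 0.22, 0.25 and 0.17 in inhibitory neurons, none of them called. Relative to the median gene of the class these were 0.08, 0.03 and 0.23 and 0.06, 0.12 and 0.15. The dentate cluster with Penk, which is larger in the knockout libraries, had 32.7 CPM of Ece2 against 26.1 in the largest dentate cluster.

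CA1 neurons had the least Ece2 of any neuron class, at 3.81, 2.56, 6.74, 6.69 and 6.69 CPM from 62, 39, 100, 78 and 135 UMIs. The 5xFAD library was lowest and the 3 knockout libraries lay together, with intervals of 5.49 to 8.20, 5.29 to 8.35 and 5.61 to 7.92 CPM that did not meet the 1.82 to 3.50 of 5xFAD or the 2.92 to 4.88 of wild type. The log2 ratios to 5xFAD were 1.40 (0.85 to 1.97), 1.39 (0.81 to 1.98) and 1.39 (0.86 to 1.94), and relative to the median gene of CA1 neurons in those comparisons 1.19, 1.21 and 1.34. In CA3 neurons Ece2 was 13.5, 9.84, 14.7, 15.4 and 16 CPM, again lowest in 5xFAD; with nuclei classed by their highest marker score the CA3 ratios were no longer called for 5xFAD against wild type (-0.16) and for the astrocyte library (0.26). The first was also within the fold among nuclei with Xist (-0.32), among those with Y-linked RNA (-0.25) and with a pseudocount of 5 CPM (-0.32). Ece2 was called lower in 5xFAD than in wild type in 2 of 5 classes, beside 11.9% of all pairs, and called higher in each knockout library in 2 of 5 classes, beside 33.3%, 31.2% and 14.2% of all pairs called higher. The CA1 ratio of 5xFAD to wild type was -0.57, and within the fold (-0.22) with a pseudocount of 5 CPM. The CA1 clusters differed in Ece2, at 0.770 CPM in the largest, led by Gm2115 and Galntl6, 6.59 in that led by Pde11a and Dcn and 15.1 in that led by Cdc14a and Wfs1. The last of these also had Vwc2l and Tshz2, used here as subicular markers, among its leading genes. It held 196 of the 414 UMIs of Ece2 in CA1 neurons. The largest cluster made up 52.2%, 62.1%, 48.1%, 50.4% and 49.9% of CA1 nuclei, highest in the 5xFAD library. With the cluster mix held fixed the 3 CA1 ratios to 5xFAD were 0.996, 1.14 and 1.12, and in every setting run they stayed past the fold, at 0.63 or more.

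Lrp1 is a large endocytic receptor of the LDL receptor family. Microglia had 452, 360, 595, 430 and 281 CPM from 43, 78, 151, 67 and 56 UMIs. The astrocyte MAGL-KO library was highest and the global MAGL-KO library lowest, and their intervals (504 to 697 and 212 to 364) did not overlap. Oligodendrocyte precursors had 301, 265, 339, 329 and 256 CPM and astrocytes 188, 225, 239, 220 and 190 CPM. The range of astrocytes lay below that of precursors, and the range of microglia overlapped that of precursors. The 5 compared neuron classes were lower, between 49.4 and 99.97 CPM, and Cajal-Retzius cells had 192 CPM from 28 UMIs.

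Mature oligodendrocytes almost lacked Lrp1, with 2, 1, 0, 2 and 1 UMIs among 309, 302, 305, 262 and 215 nuclei. Their precursors, with 868 UMIs in all, had some of the highest levels. The start-site peak at chr10:127621000-127621965, which covers the Lrp1 window printed above, was also high in microglia, astrocytes and precursors and low in oligodendrocytes: its mean over libraries was 95 CPM of cut sites in microglia, 85.8 in astrocytes, 75.6 in precursors, 26.5 to 41.1 in the neuron classes and 12.8 in oligodendrocytes. The range over libraries in oligodendrocytes, 10.3 to 16.7, lay below that of astrocytes (53.3 to 108) and of microglia (60.2 to 139). Some cut sites were thus counted in this peak in a class with almost no Lrp1 RNA. The background level of cut sites was not measured, so low values cannot be read as open chromatin.

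**Figure D4:**
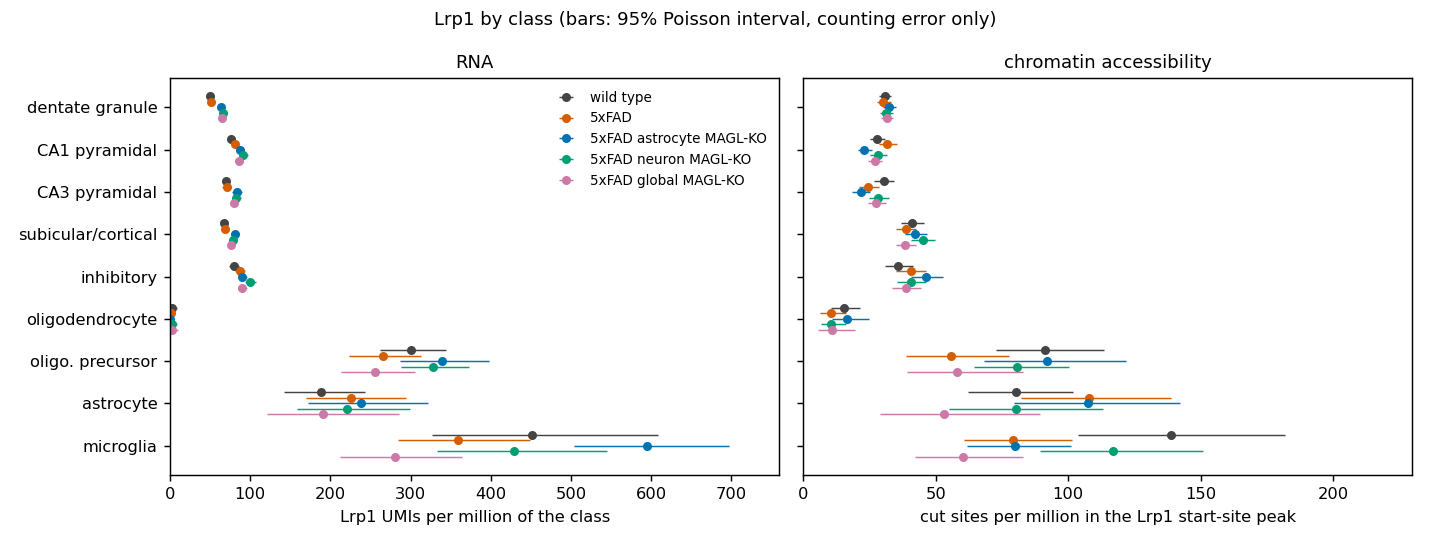
Lrp1 by class: left, RNA in CPM of the class; right, cut-site CPM in the start-site peak; 1 point per library with 95% Poisson bars. Microglia, astrocytes and oligodendrocyte precursors are high in both panels and oligodendrocytes low in both.

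Between the library labelled astrocyte MAGL-KO and 5xFAD, microglial Lrp1 was called higher, with a log2 ratio of 0.73 (0.32 to 1.14), beside 18.1% of microglial genes. For the global library the ratio was -0.36, with an interval of -0.88 to 0.16 that holds 0. Microglia fell into 2 clusters: wild-type microglia lay almost wholly in a cluster led by Inpp5d, Ctss and C1qa, and 5xFAD microglia mostly in one led by Apoe and Ctss. In the Apoe-led cluster Lrp1 was 375, 624, 435 and 220 CPM in the 4 5xFAD libraries, and in the other it was 464, 319, 542, 416 and 360 CPM in all 5. The astrocyte MAGL-KO library was highest in both clusters, while the global MAGL-KO library was below 5xFAD in the first and above it in the second. The second cluster had 161 UMIs of Lrp1 over all libraries, with 27 nuclei in 5xFAD and 42 in the global library. Its values rest on few counts and are given without intervals. In that second cluster alone the astrocyte ratio was 0.76 and the global ratio 0.17, and with nuclei classed by their highest marker score the global ratio was 0.31.

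Dentate granule cells had 49.4, 50.6, 63.8, 66.6 and 65.1 CPM of Lrp1. The 3 knockout libraries lay above the other libraries with no overlap of intervals. The log2 ratios to 5xFAD were 0.34, 0.40 and 0.36. The cluster with Penk, 1.97% and 1.77% of dentate nuclei in the wild-type and 5xFAD libraries and 22.7%, 26.3% and 33.1% in the knockout libraries, had 80.9 CPM of Lrp1, against 48.8 in the largest dentate cluster. With the cluster mix held fixed the ratios were 0.23, 0.30 and 0.24, none past the fold, and among nuclei with Y-linked RNA 0.05, 0.24 and 0.17. Genes at large were higher too: the median gene of the neuron classes was higher than in 5xFAD by 0.16 to 0.21 on the log2 scale in the library labelled astrocyte MAGL-KO, by 0.13 to 0.20 in that labelled neuron MAGL-KO and by 0.03 to 0.05 in that labelled global MAGL-KO. Relative to the median gene of dentate granule cells, the Lrp1 ratios were 0.14, 0.25 and 0.32. Relative to the median, Lrp1 was above in 6 of 8 classes in the astrocyte comparison, as against 8 of 8 in CPM.

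Sorl1 encodes SorLA, a sorting receptor that keeps amyloid precursor protein out of late endosomes and is a risk gene in Alzheimer disease. CA1 neurons had 224, 250, 196, 221 and 247 CPM. Dentate granule cells had 185, 205, 170, 181 and 184 CPM, and astrocytes 191, 192, 144, 199 and 207 CPM. The astrocyte MAGL-KO library was lowest in each of these classes and the 5xFAD library highest in the 2 neuron classes. Within CA1, Sorl1 was 297 CPM in the cluster led by Gm2115 and Galntl6, 217 in that led by Pde11a and Dcn and 63.8 in that led by Cdc14a and Wfs1, the reverse of the order for Ece2.

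In oligodendrocytes Sorl1 was 90.3, 94.8, 53.2, 93.3 and 58.3 CPM from 32 to 91 UMIs, low in the astrocyte and global MAGL-KO libraries. Precursors had 8.51 CPM on average from 25 UMIs. Sorl1 in the library labelled astrocyte MAGL-KO was below 5xFAD in 7 of 7 classes, with log2 ratios of -0.19 to -0.83, and was called lower in 4 of these, beside 6.14% of all pairs. Relative to the median gene of each class it was at least 20% lower in all 7, where 12.9% of all pairs were, with ratios of -0.35 to -0.85. In the subicular and cortical class the ratio was -0.38 (-0.47 to -0.29), and within the fold in 4 settings (-0.26 to -0.30: thinned nuclei, nuclei with Y-linked RNA, classes by marker score and the mean over nuclei). In oligodendrocytes it was -0.83 (-1.42 to -0.28), but -0.06 with likely doublets kept. In CA1 neurons it was -0.35 (-0.42 to -0.28), and -0.19 with the cluster mix held fixed. In the library labelled neuron MAGL-KO no class was called, and in that labelled global MAGL-KO 1 of 7 was (7.99% of all pairs were called lower), oligodendrocytes at -0.70 (-1.33 to -0.11), which turned to 0.22 with likely doublets kept. In 5xFAD against wild type Sorl1 was higher in 7 of 7 classes by 0.00 to 0.16, with none called. The start-site peak had cut sites in all 9 compared classes, from 15.9 CPM of cut sites in precursors to 37.6 in astrocytes. A peak within the gene at chr9:42054787-42055760 had 34.8 CPM in the subicular and cortical class, 28.3 in CA1 neurons and 0.197 in precursors.

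Sort1 encodes sortilin, which carries progranulin and proneurotrophins as well as amyloid precursor protein. Oligodendrocytes had 352, 406, 305, 316 and 295 CPM, from 162 to 390 UMIs, a range that did not overlap that of the next class. The 5xFAD library was highest, and its interval (367 to 449) lay above those of the 3 knockout libraries, which reached 355 at most. The log2 ratios to 5xFAD were -0.41 (-0.66 to -0.17), -0.36 (-0.59 to -0.14) and -0.46 (-0.73 to -0.19), and all 3 were called. With nuclei thinned to 1000 UMIs none of the 3 was past the fold (-0.18, -0.15 and -0.32). Among nuclei with Y-linked RNA the global ratio was -0.0051, and among nuclei with Xist the astrocyte and neuron ratios were -0.25 and -0.29. Precursors had 21.0 CPM on average, so Sort1 and Lrp1 were placed oppositely in the oligodendrocyte lineage.

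Neuronal Sort1 differed little between libraries. It was 182, 181, 181, 178 and 188 CPM in dentate granule cells, 194, 193, 186, 189 and 193 CPM in CA3 neurons and 151, 144, 143, 144 and 143 CPM in the subicular and cortical class. In CA1 neurons it was 197, 189, 195, 177 and 177 CPM, where the interval of wild type (190 to 204) lay above those of the neuron (170 to 185) and global (172 to 183) MAGL-KO libraries. In inhibitory neurons it was 116, 111, 111, 118 and 106 CPM. No neuronal ratio of Sort1 was called in any comparison. Microglia had 273, 171, 158, 115 and 120 CPM from 145 UMIs in all, highest in wild type; the cluster led by Inpp5d had 219 CPM and the Apoe-led cluster 115. The log2 ratio of 5xFAD to wild type was -0.68 (-1.44 to 0.10), and 0.26 in the cluster led by Inpp5d alone. The ratios of the neuron and global libraries to 5xFAD were -0.56 and -0.50, both called, and -0.13 and -0.06 with classes by marker score. These called ratios rest on part of the 145 UMIs and are given without a counting interval, so they are not shown to exceed counting error. In the cluster led by Inpp5d alone they were -1.36 and -1.40. That cluster had 27 nuclei in 5xFAD, 15 in the neuron library and 42 in the global library. It held 82 UMIs of Sort1 over all libraries. The ratios in that cluster alone therefore rest on few UMIs, and they carry no counting interval. The start-site peak was highest in oligodendrocytes among the compared classes, at 61.9 CPM of cut sites, and 25.2 to 37.4 in the neuron classes. A peak near the 3′ end of the gene, at chr3:108358285-108359215, had 24.6 CPM in CA1 neurons and 2.30 in oligodendrocytes.

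Over all members and classes, 14 of 44 ratios were called in 5xFAD against wild type, 7 higher and 7 lower, with 7.87% and 11.9% of all pairs called in those directions. For the library labelled astrocyte MAGL-KO 5 of 42 were higher and 11 lower, beside 33.3% and 6.14%. For that labelled neuron MAGL-KO 4 of 43 were higher and 5 lower, beside 31.2% and 7.06%. For that labelled global MAGL-KO 4 of 43 were higher and 13 lower, beside 14.2% and 7.99%, and 7 of the 13 were Ide. The 3 knockout comparisons share the 5xFAD library. Relative to the median gene of each class the counts were 7 higher and 6 lower in 5xFAD against wild type (8.32% and 11.2% of all pairs), 4 higher and 17 lower in the astrocyte comparison (20.4% and 12.9% of all pairs), 4 and 10 in the neuron comparison (20.7% and 13.5%) and 3 and 13 in the global comparison (12.2% and 9.40%).

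**Figure D5:**
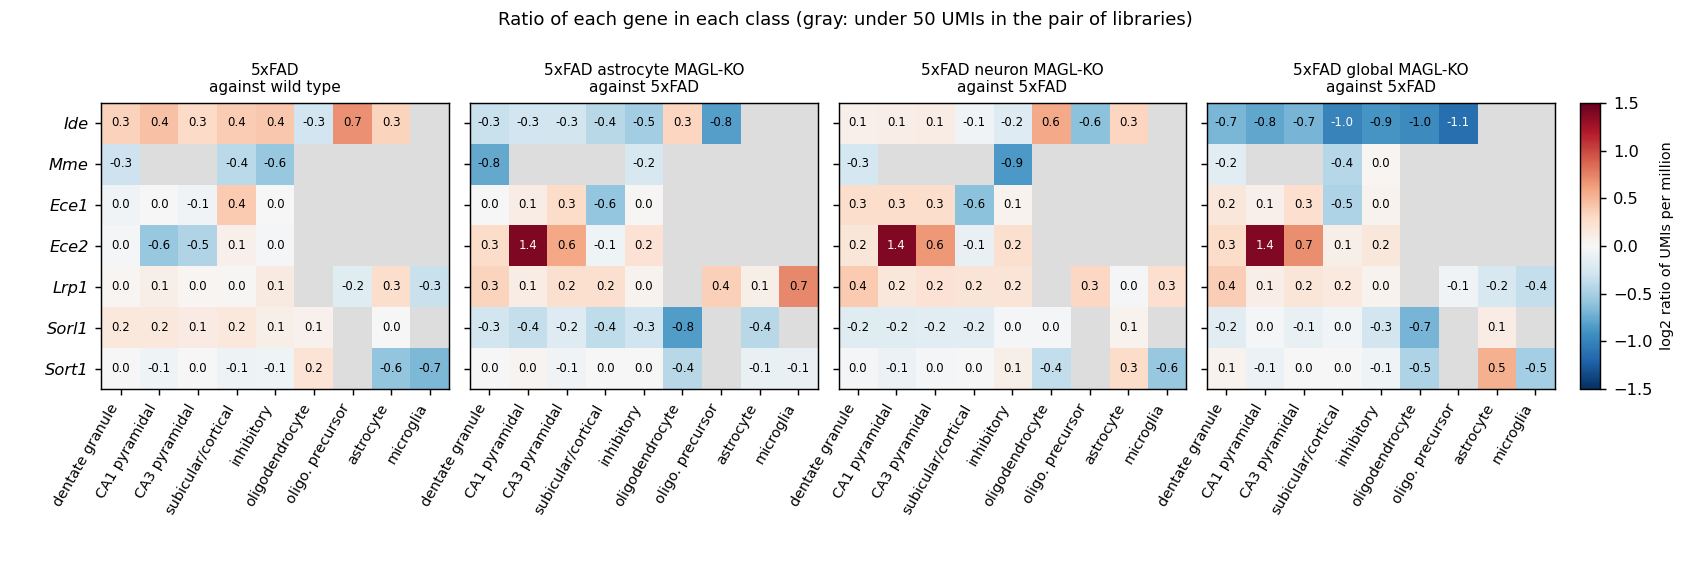
Log2 ratio of each gene (rows) in each class (columns) for the 4 comparisons of libraries; gray cells had under 50 UMIs in the pair of libraries. Ide is lower in the global MAGL-KO library in all 7 classes tested, and Sorl1 is lower in the astrocyte MAGL-KO library in all 7.

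Other genes of amyloid clearance and sorting were read from 6 lists with 89 genes. In dentate granule cells, 16 of 25 other amyloid-degrading enzymes and protease inhibitors could be compared. In 5xFAD against wild type 1 was called higher and 2 lower, with a median log2 ratio of -0.03, where 4.42% and 8.55% of dentate genes were called. In the 3 knockout comparisons 8, 8 and 6 of 16 were called higher and 0 lower, with medians of 0.35, 0.34 and 0.16 beside medians over all dentate genes of 0.20, 0.15 and 0.04 and 35.5%, 31.5% and 14.7% called higher and 3.93%, 5.28% and 6.40% called lower. Mmel1, a close relative of neprilysin, was 1.75, 2.22, 4.6, 6.93 and 6.71 CPM there. Mme itself did not share this order in dentate granule cells. Of 20 retromer and adaptor genes, the machinery that recycles SorLA and sortilin, 0, 2, 0 and 1 were called higher and none lower in the 4 comparisons, with medians of 0.02, 0.04, 0.11 and 0.00.

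In microglia, 4 genes of the same list, 3 cathepsins and an inhibitor, reached the UMI minimum, which is set over the 2 libraries together. All 4 were called higher in 5xFAD than in wild type, where 29.3% of microglial genes were and 26.7% were lower. The log2 ratios were 1.72 for Ctsb, 1.44 for Ctsd and 1.23 for Ctsl, lysosomal cathepsins, and 2.00 for Serpine2, a protease inhibitor. Wild-type microglia had 95166 UMIs in 43 nuclei and 5xFAD microglia 216825 in 85. A gene high in 5xFAD microglia therefore reached the minimum more easily than a gene high in wild-type microglia. The share of the list called higher is thus no test of its direction. These ratios are given without wild-type counts or counting intervals. In the library labelled astrocyte MAGL-KO 1 of 4 was called higher than in 5xFAD and 0 lower, beside 18.1% and 21.1% of microglial genes. In that labelled neuron MAGL-KO 2 of 4 were higher and 0 lower, beside 17.3% and 22.1%. In that labelled global MAGL-KO 0 of 4 were higher and 3 lower, beside 19.6% and 17.4%. The Apoe-led cluster, which wild-type microglia nearly lack, has Ctsd among its leading genes, and its part in these ratios was not tested.

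The 3 other VPS10 receptors behaved less evenly in dentate granule cells than Sorl1 and Sort1. Sorcs1 was 30.0, 16.9, 43.7, 114 and 88.1 CPM, Sorcs3 was 125, 84.4, 116, 483 and 194 CPM, and Sorcs2 was 81.5, 91.1, 96.4, 100 and 84.6 CPM. The neuron MAGL-KO library was highest for all 3. Across the list 2 of 3 were called lower in 5xFAD than in wild type, beside 8.55% of dentate genes, and 2 of 3 higher in each knockout library, beside 35.5%, 31.5% and 14.7%. The dentate cluster with Penk was under 2% of dentate nuclei in the wild-type and 5xFAD libraries and 22.7% to 33.1% in the knockout libraries, and its part in these values was not tested.

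Patterns over the 50 values of 10 classes in 5 libraries were compared with those of 12125 genes by Spearman correlation of class CPM, as a description, since values of 1 library share their depth. Among the closest to Lrp1 were Fchsd2 and Mertk, each at 0.91. Closest to Mme was Rundc3b at 0.84, to Ece1 Ift81 at 0.85, to Ece2 Gad1os at 0.83 and to Sorl1 Mical2 at 0.85. Sort1 came no closer than 0.71 to any gene (Fam171a1), and Ide no closer than 0.65 (Tm7sf2). Among the members, the highest correlation was 0.55 between Mme and Ece2 and the lowest was -0.55 between Lrp1 and Sort1.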

How the data were processed

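Single-nucleus RNA and ATAC libraries of 5 hippocampus samples, 1 per genotype, were read as the authors deposited them: matrices of raw UMI counts per gene and of cut-site counts per peak, made with Cell Ranger ARC 2.0.0 on mm10, per the file headers and the submitters' processing notes, which also name Seurat. Peaks were called in each library. Those that overlapped between libraries were joined into regions, and each library's own counts in its peaks of a region were added. The widths counted can therefore differ between libraries. Cut-site CPM is relative to all cut sites in the peaks of the same library and class.

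Nuclei had to show 500 genes or more and no more than 5% of UMIs from mitochondrial genes. Those with the highest simulated-doublet scores were removed, at 0.8% per 1000 nuclei. Nuclei were clustered with scanpy 1.11.5 and leidenalg 0.10.2 (2000 variable genes, 40 principal components, 15 neighbours, resolution 1), with glia clustered again on 30 components, and clusters were named from marker lists. UMIs were summed per class and library and scaled to CPM (counts per 1000000) with exact Poisson intervals. Ratios carry exact 95% conditional binomial intervals (scipy 1.17.1), which cover counting error only. A ratio was called when 25% higher or 20% lower, with at least 50 UMIs over both libraries. Ratios, calls and intervals were tested on counts simulated at the level of class totals, for dentate granule cells and CA1 neurons. The summing of nuclei was not part of that test, and changes near the fold were not simulated. No group has a replicate, so no p-value is given. Fewer cells of a type and less RNA per cell cannot be told apart in a class level where classes mix clusters.

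Named genes are the 7 members, genes of the pathway lists and, per member, the 3 genes of highest Spearman correlation of class CPM among genes with at least 500 UMIs, gene models left out; the closest are printed, and 1 gene is not reported here. The members and lists were chosen with earlier results of these data known. Alternatives changed the class assignment, scaling, depth, weighting, filters, doublets, sex of nuclei, pseudocount, fold and UMI minimum; 2 more, a fixed cluster mix and leaving out nuclei with both Xist and Y-linked UMIs, were chosen after seeing the data.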

Additional observations from a re-analysis of the deposited data

Results flagged for a closer look

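The Mme ratio of the library labelled neuron MAGL-KO to 5xFAD in inhibitory neurons went opposite ways by sex of the nucleus. On the log2 scale it was -1.41 among nuclei with Xist and 0.49 among nuclei with Y-linked RNA, the latter from 16 UMIs in 40 nuclei of the knockout library. The difference was not tested, and sex and animal cannot be told apart within a library.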

How the results depend on the processing

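Of 56 called ratios of members, 46 kept 1 sign in every setting run and 18 stayed past the fold, while 38 fell within it or reversed in at least 1 setting. A setting that left a ratio under 50 UMIs gave no value and is not counted as a loss, which favours ratios with few UMIs. The fixed cluster mix was an exception: in microglia it gave Sort1 ratios from 1 cluster with few UMIs. Of 1921 alternative values of all member ratios, 227 lay outside the counting interval of the main ratio, reversed calls not counted among them. Of the 1921, 185 had the opposite sign, 12 of these for called ratios. A minimum of 10 UMIs leaves every tested ratio unchanged, and the fixed cluster mix does so in astrocytes and precursors, so those values could not move. Counts past the fold, mainly 14, 16, 9 and 17 for 5xFAD against wild type and for astrocyte, neuron and global MAGL-KO against 5xFAD, became 3, 6, 5 and 10 at 1.5-fold. Classing nuclei by highest marker score gave 18 and keeping doublets gave 14 for neuron MAGL-KO. Thinning to 1000 UMIs gave 6 for 5xFAD against wild type and 9 for global MAGL-KO. Xist nuclei alone gave 9 for 5xFAD against wild type, and Y nuclei alone gave 5 there, 14 for neuron and 7 for global MAGL-KO.

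Reversed log2 ratios under the marker score were 0.12 (Sort1 log2 ratio, astrocyte, 5xFAD against wild type), -0.12 (Ide log2 ratio, oligodendrocyte, 5xFAD neuron MAGL-KO against 5xFAD), 0.57 (Mme log2 ratio, subicular and cortical, 5xFAD global MAGL-KO against 5xFAD), -0.042 (Sort1 log2 ratio, astrocyte, 5xFAD global MAGL-KO against 5xFAD) and 0.31 (Lrp1 log2 ratio, microglia, 5xFAD global MAGL-KO against 5xFAD). Thinning gave -0.19 (Ece1 log2 ratio, subicular and cortical, 5xFAD against wild type). Keeping doublets gave 0.14 (Sort1 log2 ratio, microglia, 5xFAD against wild type) and 0.22 (Sorl1 log2 ratio, oligodendrocyte, 5xFAD global MAGL-KO against 5xFAD). Y nuclei gave -0.034 (Ide log2 ratio, subicular and cortical, 5xFAD against wild type) and 0.49 (Mme log2 ratio, inhibitory, 5xFAD neuron MAGL-KO against 5xFAD). A fixed cluster mix, which for microglia leaves the cluster led by Inpp5d alone, gave 0.26 for Sort1 in microglia, 5xFAD against wild type, and 0.17 for Lrp1 in microglia, global MAGL-KO against 5xFAD. In that cluster Sort1 had 82 UMIs and Lrp1 had 161 UMIs over all libraries, so both values rest on few counts. The cause of the reversals was not tested.

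No paired analysis was possible because each genotype has 1 library, and leaving out a library would leave no group. Glial values rest on few nuclei.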
